A study of Mus musculus with 2 samples.

Results

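The 10 genes described here, Sox4, Sox7, Sox9, Sox10, Sox11, Sox12, Sox13, Sox15, Sox17 and Sox18, encode transcription factors of the Sox family. They were chosen by name, and all 10 were found among the 54438 mouse genes to which the deposited transcripts could be assigned. The data are 2 RNA libraries, titled W1 and W2, that the labels assign to mammary basal cells. The mice were C57BL/6 and wild type, at an age of 8 weeks, the cells were obtained by flow sorting, and cDNA was made with a Smart-seq kit. The series is about basal cells with and without Pd-l1, but the labels of both libraries are otherwise identical, so neither was placed in a Pd-l1 class. Values are given for each library, no library has a replicate, and no p-value is given. No source used here gives the antibodies, the gates, or how many mice and cells went into each library.

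Sox proteins bind the minor groove of DNA through a single HMG box and bend it, and they usually act with partner factors. The family is divided into groups by the sequence of this box. Group F (Sox7, Sox17 and Sox18) is known for its role in blood and lymphatic vessels, and Sox18 switches on Prox1 when lymphatic vessels form. Group C (Sox4, Sox11 and Sox12) acts in progenitor cells of many tissues. Group E (Sox8, Sox9 and Sox10) acts in cartilage, neural crest and glia, and Sox9 and Sox10 are known regulators of mammary epithelial stem and progenitor cells. Sox13 belongs to group D with Sox5 and Sox6, and Sox15 is the only member of group G.

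The coding sequence of the HMG box is shown because reads of related genes can be told apart only where their sequences differ. A window of 207 bases, 69 codons, was read from the GENCODE M21 transcript of each gene on GRCm38, 5′ to 3′ on the coding strand. Capitals mark the 71 bases that are the same in all 10 genes. The 5 genes shown are Sox18 and Sox17 of group F, Sox4 with its close relative Sox11, and Sox9. The windows lie at chr2:181670896-181671287 (minus strand), chr1:4492568-4493205 (minus), chr13:28952641-28952847 (minus), chr12:27342058-27342264 (minus) and chr11:112782897-112783896 (plus). Those of Sox18, Sox17 and Sox9 each span 1 intron, which is left out of the sequence.
Sox18: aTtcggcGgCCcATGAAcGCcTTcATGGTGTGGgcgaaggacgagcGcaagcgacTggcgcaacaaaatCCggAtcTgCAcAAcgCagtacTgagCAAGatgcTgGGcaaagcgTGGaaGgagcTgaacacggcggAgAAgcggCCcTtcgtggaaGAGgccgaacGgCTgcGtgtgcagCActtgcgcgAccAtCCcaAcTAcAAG
Sox17: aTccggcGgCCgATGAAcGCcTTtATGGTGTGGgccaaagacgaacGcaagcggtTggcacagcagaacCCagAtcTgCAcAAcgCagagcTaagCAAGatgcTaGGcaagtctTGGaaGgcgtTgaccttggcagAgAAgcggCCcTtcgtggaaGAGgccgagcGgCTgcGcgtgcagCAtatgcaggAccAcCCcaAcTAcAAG
Sox4: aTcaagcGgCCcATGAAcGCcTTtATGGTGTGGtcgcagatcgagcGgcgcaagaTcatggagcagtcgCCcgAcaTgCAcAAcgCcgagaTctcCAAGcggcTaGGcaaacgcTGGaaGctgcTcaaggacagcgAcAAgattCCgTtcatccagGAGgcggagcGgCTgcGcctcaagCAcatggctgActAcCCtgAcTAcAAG
Sox11: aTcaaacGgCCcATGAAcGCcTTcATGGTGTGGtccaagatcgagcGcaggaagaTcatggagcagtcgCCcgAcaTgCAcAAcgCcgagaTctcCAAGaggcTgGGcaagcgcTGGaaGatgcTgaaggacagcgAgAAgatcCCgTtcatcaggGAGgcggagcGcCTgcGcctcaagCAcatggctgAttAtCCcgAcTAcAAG
Sox9: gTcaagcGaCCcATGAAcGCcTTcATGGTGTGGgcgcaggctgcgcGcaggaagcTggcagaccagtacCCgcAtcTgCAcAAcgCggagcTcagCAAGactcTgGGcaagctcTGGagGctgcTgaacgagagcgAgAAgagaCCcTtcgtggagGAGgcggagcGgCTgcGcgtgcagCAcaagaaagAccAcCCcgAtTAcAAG
Over all 10 genes, the 7 pairs within a group shared 77.8% to 90.3% of the bases in this window and the 38 pairs from different groups shared 58.5% to 76.3%. Sox4 and Sox11 were the closest pair, at 90.3%. No pair had a stretch of 50 bases in common, so a stretch of that length inside the box is found in only 1 of the 10 genes.

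**Figure D1:**
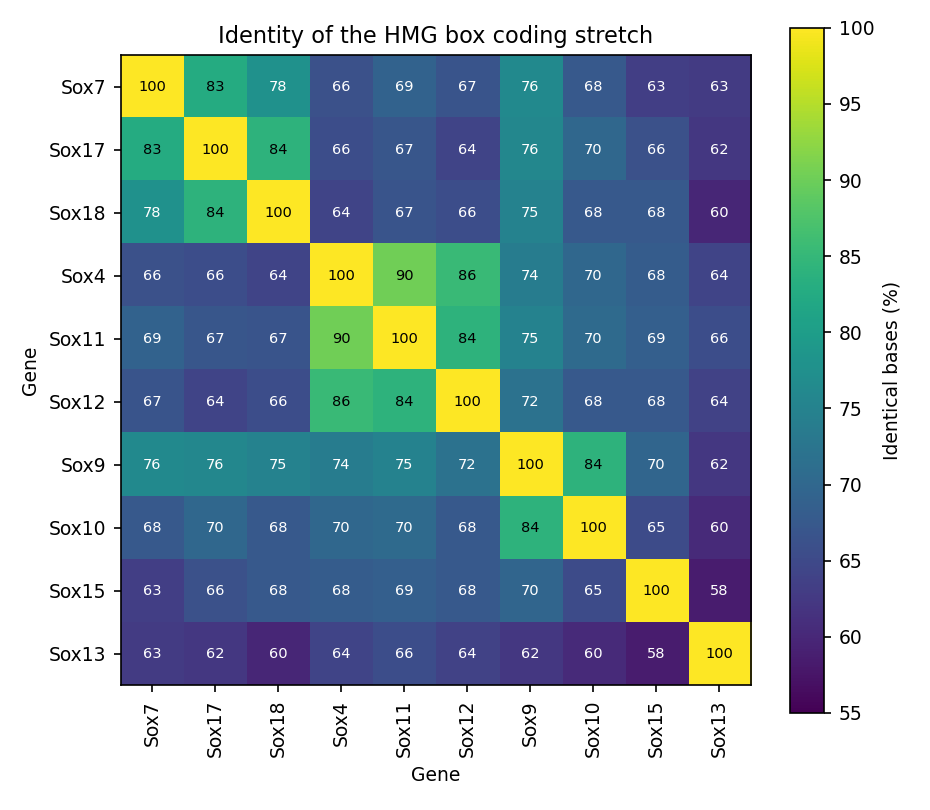
Percentage of identical bases (colour and number in each cell) between the 207-base HMG box windows of each pair of the 10 genes, listed on both axes. The blocks of group F (Sox7, Sox17, Sox18) and group C (Sox4, Sox11, Sox12) stand out, with 77.8% to 90.3% within groups against at most 76.3% between groups.

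The libraries differed in markers of cell types, and these differences accompany every Sox value below. The depth behind the values was 3055840 counted reads in W1 and 3800029 in W2, recovered from the steps between deposited values. All 9 basal and myoepithelial markers that could be compared were higher in W2, and the 10 markers on that list summed to 14.6 TPM (the abundance unit of the files, scaled to the same total in each library) in W1 and 39933 TPM in W2. Acta2, smooth muscle actin, had 37 reads in W1 and 112934 in W2. Krt5, a basal keratin named after its values were seen, had 0 and 3923. Trp63, which defines basal cells, had 0 reads on its 8 listed transcripts in either library. Reads that fit several of them may not have been counted, and this was not checked, so its 0 may give no level. Of 12 endothelial markers, 10 could be compared, all higher in W1, and the list summed to 4931 TPM in W1 and 7.07 TPM in W2. All 7 luminal and all 6 fibroblast markers compared were also higher in W2. Of 6 lymphatic markers compared, 3 were higher in W1, 1 was higher in W2 and 2 lay within 2-fold. Of 3 leukocyte markers, 2 were higher in W1, and of 2 pericyte markers, 1 was higher in W2. Over all compared genes, 34.7% were higher in W1 and 32.9% in W2, by the 2-fold rule given below. Beside these shares, the lymphatic, leukocyte and pericyte counts rest on few genes and are no result about those cell types. The part of cell composition in the Sox values was not tested. In bulk RNA, fewer cells of a type and less RNA per cell cannot be told apart.

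Group F genes made up most Sox reads in W1, and Sox4 and Sox9 made up most in W2. Of 2768 reads on the 20 Sox genes of the mouse in W1, 86.6% fell on group F (exact Clopper-Pearson 95% interval 85.3 to 87.9), 10.5% on group C and 2.28% on group E. Of 6777 Sox reads in W2, 1.30% fell on group F (1.04 to 1.60), 59.0% on group C and 39.5% on group E. These are shares of reads and not of levels, since longer transcripts give more reads, and genes with several listed transcripts may be undercounted where reads fit more than 1 of them. All intervals here cover counting error only, because reads carry no molecular identifiers and the cDNA was amplified.

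**Figure D2:**
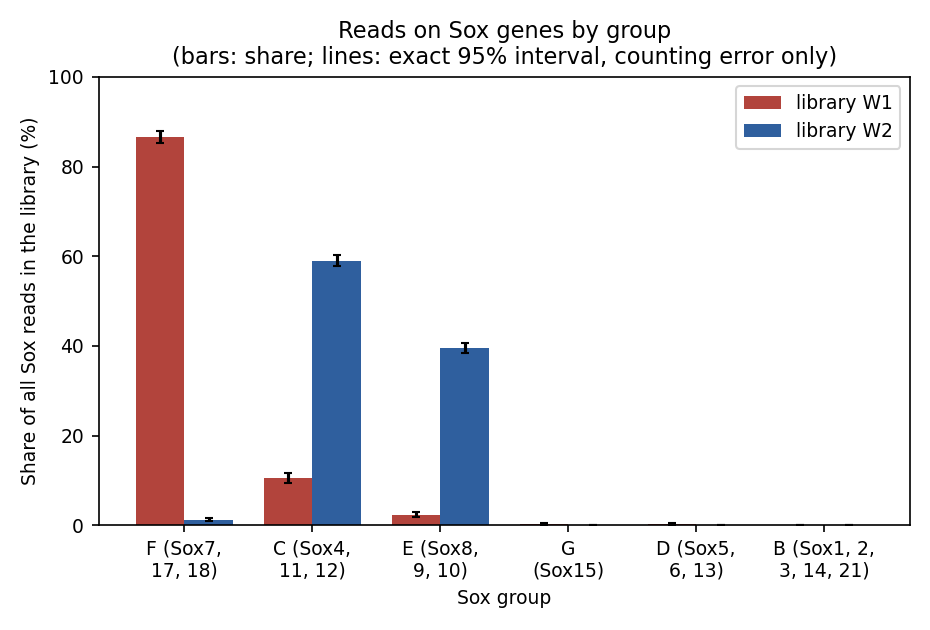
Share of all Sox reads in a library (vertical axis, percent) by Sox group (horizontal axis), with exact 95% intervals as lines. Group F holds 86.6% in library W1 and 1.30% in library W2, while groups C and E together hold most Sox reads in library W2.

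Genes were compared when they reached 1 TPM in at least 1 library, and counted as higher in a library where (TPM + 1) there was at least 2-fold that in the other, a scale that understates the ratio of low genes. Of the 10 Sox genes, 8 had a read in at least 1 library and 7 reached 1 TPM. Sox18, Sox7 and Sox17 were called higher in W1, where 34.7% of all 12587 compared genes were called higher. Sox4, Sox9 and Sox10 were called higher in W2, where 32.9% of compared genes were. Sox15 lay within 2-fold. A gene with reads in only 1 library passed through the library where it was high, so these counts are a description.

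**Figure D3:**
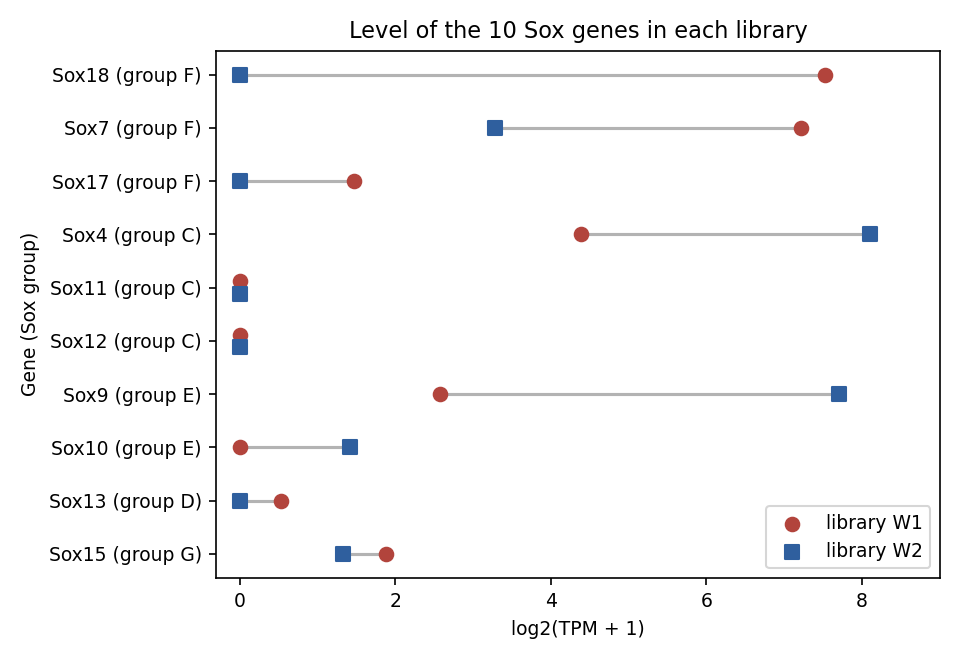
Level of each of the 10 Sox genes as log2(TPM + 1) (horizontal axis) in library W1 (circles) and library W2 (squares), with a grey line joining the libraries. Sox18 and Sox7 lie far to the right in library W1, Sox4 and Sox9 in library W2, and Sox11 and Sox12 are at 0 in both.

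Sox18, a factor of vessel and lymphatic development (ENSMUSG00000046470.5, chromosome 2, 181669836 to 181671640, minus strand), had 898 reads in W1, a level of 183 TPM. It had 0 reads in W2. Its level in W1 was 301-fold that of a floor of 3 reads over the gene in W2. The exact interval on the ratio reaches down to 245, and the log2 ratio of TPM + 1 was 7.52. Only 0.167% of compared genes had a larger log2 ratio toward W1. Sox18 has 1 listed transcript and every 50-mer of it is found in no other listed transcript.

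Sox7, which acts with the other group F factors in vessels (ENSMUSG00000063060.6, chromosome 14, 63943673 to 63950732, plus strand), stood at 148 TPM in W1 and 8.74 TPM in W2. These levels rest on 1483 and 88 reads. The level in W1 was 16.97-fold higher (interval 13.7 to 21.3), a log2 ratio of 3.94. Unlike Sox18, Sox7 was read in both libraries, and 99.94% of its 50-mers are its own. Sox18 made up 37.7% of the Sox7 and Sox18 reads in W1 (35.8 to 39.7). In W2 it made up 0 of 88 reads, which allows a share of up to 3.41% by the floor of 3 reads and up to 4.11% by the exact interval. Of the 12 endothelial markers, only Plvap and Egfl7 had reads in both libraries. Plvap, a component of endothelial fenestrae, had 11783 reads in W1 and 29 in W2, a 409-fold difference (285 to 611). Egfl7, a protein secreted by endothelial cells and named after its values were seen, had 154 and 13, a 17.9-fold difference (6.77 to 22.9). Egfl7 has 19 listed transcripts, and its interval comes from the read counts of the gene without regard to their lengths. The interval of Sox7 overlaps that of Egfl7 and lies below that of Plvap. The other endothelial markers had 0 reads in W2, so their intervals have only a lower end. That end lay above the interval of Sox7 for Cldn5 (1861), Cdh5, Kdr, Flt1, Esam, Pecam1 and Emcn (34.4). It lay lower for Robo4 (6.33), Tek and Tie1, which had few reads.

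Sox17, a factor of arterial endothelium and endoderm (ENSMUSG00000025902.13, chromosome 1, 4490931 to 4497354, minus strand), was read at a low level in W1. It stood at 1.76 TPM in W1 from 17 reads and at 0 reads in W2, a level 5.71-fold over the same floor. The exact interval on the ratio reaches down to 4.15. Of its 8 listed transcripts, Sox17-201 had 9 reads and Sox17-206 had 8. Sox17-206 overlaps the gene Gm37587 on the opposite strand, and none of its 50-mers is its own when both strands are counted, although 597 are on its own strand. Gm37587 had 18 reads in W1 and 0 in W2. No source used here says whether strand was used in counting, so these reads cannot be told apart.

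Sox4, a factor of progenitor cells (ENSMUSG00000076431.4, chromosome 13, 28948919 to 28953713, minus strand), had the most reads of the Sox genes in W2 and ranked below Sox7 and Sox18 in W1. It stood at 20.03 TPM in W1 and 273 TPM in W2, from 291 and 4000 reads. The level in W2 was 13.7-fold higher (12.1 to 15.4), a log2 ratio of -3.71. Sox4 was thus read in both libraries. The noncoding gene Gm26735 lies on the opposite strand and 2567 of the 4746 50-mers of Sox4 are found in it, which is nearly all of its 2600 50-mers. Gm26735 had 258 reads in W1 and 3382 in W2, a 13.02-fold difference (11.5 to 14.8). Its reads amounted to 88.7% and 84.6% of those of Sox4, so the levels of this pair cannot be told apart where they overlap.

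Sox11 and Sox12, the other group C genes, had 0 reads in both libraries, and these zeros do not carry the same weight. Sox11 (ENSMUSG00000063632.6, chromosome 12, 27334264 to 27342574, minus strand) has 1 listed transcript, 8311 bases long, and all 8262 of its 50-mers are its own. A floor of 3 reads puts it below 0.119 TPM in W1 and 0.118 TPM in W2. Sox12 (ENSMUSG00000051817.8, chromosome 2, 152393611 to 152398063, minus strand) has 2 listed transcripts, with 46 of 4120 and 330 of 4404 50-mers of their own, and reads that fit both may not have been counted. Its 0 therefore gives no level.

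The 250 bases before the RefSeq start are shown for Sox4 and Sox11, because this pair has the most similar HMG boxes and different read counts. They are from RefSeq on GRCm38.p6, 5′ to 3′ toward the gene, at chr13:28953700-28953949 and chr12:27342719-27342968, both on the minus strand. The last 14 bases of the Sox4 window lie inside its GENCODE transcript, and the last marked match of Sox4 falls within them. The Sox11 window instead ends 144 bases before the GENCODE start of its gene, so the windows do not cover like positions. Capitals mark CCAAT on either strand (ATTGG on the other).
Sox4: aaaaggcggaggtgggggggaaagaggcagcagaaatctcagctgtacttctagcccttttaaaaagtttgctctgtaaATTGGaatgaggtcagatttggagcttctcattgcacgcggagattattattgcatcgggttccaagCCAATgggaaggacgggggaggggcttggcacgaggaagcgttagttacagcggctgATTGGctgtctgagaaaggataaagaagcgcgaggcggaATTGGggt
Sox11: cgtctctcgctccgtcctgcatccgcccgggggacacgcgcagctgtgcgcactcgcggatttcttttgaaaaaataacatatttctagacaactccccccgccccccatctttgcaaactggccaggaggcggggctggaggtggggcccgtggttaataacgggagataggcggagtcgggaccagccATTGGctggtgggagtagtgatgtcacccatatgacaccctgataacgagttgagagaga
The Sox4 window held 4 matches and the Sox11 window 1. Of 32851 RefSeq windows of this length, 33.8% held at least 1 match and 0.84% held 4 or more. A match is a description of these letters and not a binding site. Windows were found for 5 of the 10 genes, Sox4, Sox11, Sox12, Sox13 and Sox15. The Sox12 window, of a group C gene that also had 0 reads, held 1 match, and those of Sox13 and Sox15 held 0. The letters AACAAT and TATAAA were also counted on either strand, and each of these windows held 0 of both. Over all 32851 windows, 9.42% held AACAAT and 12.4% held TATAAA.

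Sox9, a regulator of cartilage and of epithelial progenitor cells (ENSMUSG00000000567.5, chromosome 11, 112782224 to 112787760, plus strand), stood at 4.95 TPM in W1 and 208 TPM in W2, from 62 and 2621 reads. The level in W2 was 41.99-fold higher (32.6 to 54.9), a log2 ratio of -5.13. All 4086 of its 50-mers are its own. Sox9 made up 17.6% of the Sox4 and Sox9 reads in W1 (13.7 to 21.9) and 39.6% in W2 (38.4 to 40.8), intervals that do not overlap.

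Sox10, known from neural crest, glia and mammary progenitor cells (ENSMUSG00000033006.10, chromosome 15, 79154908 to 79165240, minus strand), had 0 reads in W1 and 5 in W2. All 5 fell on Sox10-204, a transcript annotated as a retained intron, which stood at 1.67 TPM in W2. The interval on the ratio reaches down to 0.910, so a difference between the libraries was not detectable at this depth, although the 2-fold rule called it. The 3 protein-coding transcripts of Sox10 had 0 reads, and they have 0, 43 and 67 50-mers of their own, so their zeros give no level. Among markers of Schwann cells and melanocytes, 4 could be compared, and they went both ways. Tyr (39 reads in W1 and 0 in W2) and Ngfr (40 and 14) were higher in W1, Mbp (0 and 277) was higher in W2, and Pmel (29 and 20) lay within 2-fold. S100b and Mlana had 0 reads in both libraries.

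Sox13, the group D member on the list (ENSMUSG00000070643.11, chromosome 1, 133382303 to 133424377, minus strand), had 5 reads in W1 and 0 in W2, all on Sox13-205. At 0.447 TPM it was below the limit for comparison. Sox15, the group G gene (ENSMUSG00000041287.5, chromosome 11, 69655314 to 69656727, plus strand), stood at 2.68 TPM in W1 and 1.52 TPM in W2, from 7 and 4 reads. Its ratio of 1.76 had an interval from 0.448 to 8.21, so no difference was detectable at this depth.

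**Figure D4:**
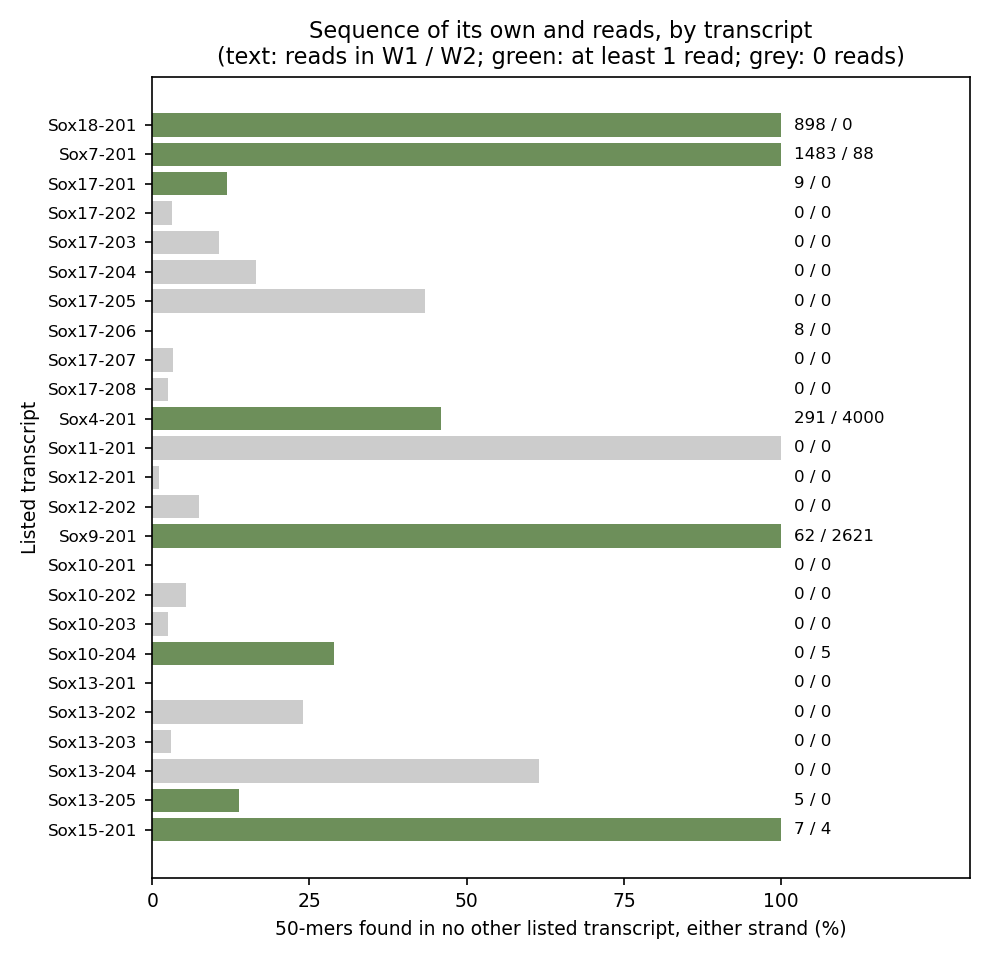
Percentage of 50-mers found in no other listed transcript on either strand (horizontal axis) for the 25 listed transcripts of the 10 genes (vertical axis), with the reads in W1 and W2 printed at the right. Green bars had at least 1 read and grey bars 0. Sox11-201 has 100% of its own sequence and 0 reads, whereas the transcripts of Sox12 have little sequence of their own.

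Levels in TPM were set side by side only for the 6 genes with 1 listed transcript. In W1 the order was Sox18 (183 TPM, exact Poisson 95% interval 171 to 195), Sox7 (148 TPM, 141 to 156), Sox4 (20.03 TPM, 17.8 to 22.5), Sox9 (4.95 TPM, 3.79 to 6.34), Sox15 (2.68 TPM, 1.08 to 5.53) and Sox11 at 0. The intervals of Sox9 and Sox15 overlapped, and the others did not. In W2 it was Sox4 (273 TPM, 265 to 282), Sox9 (208 TPM, 199.9 to 215.9), Sox7 (8.74 TPM, 7.01 to 10.8) and Sox15 (1.52 TPM, 0.415 to 3.90), with no overlap between neighbours, and Sox18 and Sox11 had 0 reads. The level of Sox4 in this order may include reads that belong to Gm26735. Among all genes with 1 listed transcript and at least 1 read, 5.99% of 5041 stood higher than Sox18 in W1 and 7.67% of 4250 stood higher than Sox4 in W2. Sox7 passed from 7.18% of genes above it in W1 to 49.44% in W2, and Sox9 from 49.08% to 8.96%.

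Nearest coding genes on either side were read for comparison. Pinx1, 23813 bases from Sox7, had 15 reads in W1 and 11 in W2. Tcea2, 8669 bases from Sox18, had 0 reads in W1 and 32 in W2, on the opposite side to Sox18. Gm29797, 10368 bases from Sox18 in the other direction, had 3 and 0 reads. This is at the floor of 3 reads, so no direction can be given for Gm29797. Kcnj2, the neighbour of Sox9 on its lower side, had 572 and 70 reads, opposite to Sox9. Polr2f, a subunit of RNA polymerases that lies 3133 bases from Sox10, had 1 and 12 reads. Cdkal1, the neighbour of Sox4 on its higher side, had 27 and 67 reads. Its levels of 6.63 and 8.35 TPM lay within 2-fold, at a log2 ratio of -0.29. Gm11361 on the lower side of Sox4 had 1911 and 3952 reads, or 1039 and 2134 TPM, a log2 ratio of -1.04. The neighbours named here were picked after all neighbours' values were seen.

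Of the 10 other Sox genes, 4 had reads. Sox8, the third group E gene, had 1 read in W1 and 53 in W2, a 57.1-fold difference on TPM with a counting interval from 9.05 to 2118. The gene 2810468N07Rik, which shares 280 50-mers with it, had 0 and 114 reads. Sox5 had 4 reads in W1 and 0 in W2, Sox6 had 0 and 4, and Sox2, a pluripotency factor, had 0 and 2. The reads of Sox5 and Sox6 fell on the short transcripts Sox5-206 and Sox6-208, of 614 and 479 bases. Long coding transcripts such as Sox5-201 and Sox6-201 have 0 50-mers of their own, so these counts give no level of the genes. Sry, Sox1, Sox3, Sox14, Sox21 and Sox30 had 0 reads in both libraries.

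Partners and targets of group F factors in vessels were mostly higher in W1. Of 24 listed genes, 17 could be compared, 15 were called higher in W1 and 1 in W2, with a median log2 ratio of 4.30. Over all compared genes, 34.7% were higher in W1 and 32.9% in W2, with a median of -0.07. The 4 most read were Cldn5, an endothelial tight junction gene (6822 and 0 reads in W1 and W2), Cdh5, VE-cadherin (6815 and 0), Kdr, a receptor for vascular endothelial growth factor (6302 and 0), and Vcam1, an adhesion molecule (4128 and 1989). Prox1, named after its values were seen, had 1801 reads in W1 and 0 in W2. Erg, Etv2, Acvrl1 and Mmp7 had 0 reads in both. Erg has 8 listed transcripts and Acvrl1 has 11. Reads that fit several of these may not have been counted, so the zeros of Erg and Acvrl1 may give no level. Cldn5, Cdh5, Kdr, Tek and Robo4 are also on the endothelial marker list, and Prox1 and Flt4 on the lymphatic one. The list was chosen with earlier results of these data known, so its counts are a description.

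Listed targets and partners of the other groups went both ways, and their counts stand beside 34.7% higher in W1 and 32.9% higher in W2 over all compared genes. The counts for group C and for beta-catenin lie near these shares and are no result about those genes. Of 24 genes for group E, 7 could be compared, with 4 higher in W1, 3 higher in W2 and a median of 1.65. Among the most read were Snai2 (17.8 and 265 TPM), a repressor of epithelial genes, Snai1 (111 and 26.5 TPM), Mbp (0 and 25.7 TPM) and Col9a2, a cartilage collagen (0 and 27.8 TPM). Mbp is also on the Schwann cell list. The cartilage genes Col2a1 and Acan had 0 reads in both libraries. They have 10 and 2 listed transcripts, and reads that fit several may not have been counted, so these zeros may give no level. Of 15 genes for group C, 7 could be compared, 2 higher in each library and 3 within 2-fold, with a median of 0.01. Here Marcks (384 and 56.7 TPM) and Smad3 (9.40 and 50.6 TPM), a TGF-beta signal transducer, lay on opposite sides, while Tgfbr1 (32.5 and 45.8 TPM) and Tgfbr2 (14.11 and 13.98 TPM) were within 2-fold. Of 13 genes of beta-catenin and its Tcf partners, 10 could be compared, 3 higher in W1 and 4 in W2, with a median of -0.17. Ccnd1, a cyclin (253 and 14.6 TPM), and Tcf7l1 (20.3 and 9.48 TPM) were higher in W1, and Lgr5, a Wnt pathway receptor (0.119 and 32.5 TPM), and Tcf7 (2.95 and 24.7 TPM) in W2. Lef1, Axin2 and Pygo2 had 0 reads in both libraries. With 8, 7 and 6 listed transcripts, their zeros may likewise give no level.

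Of 20 listed regulators of mammary stem and progenitor cells, 14 could be compared, 9 higher in W2 and 4 in W1, with a median log2 ratio of -2.36. The 9 include Stat5a, which had 0 reads in W1 and 2 in W2. Its interval on the ratio reaches down to 0.187, so no difference was detectable for Stat5a. Over all compared genes, 32.9% were higher in W2 and 34.7% in W1, with a median of -0.07. The difference between the list and all genes was not tested. The 4 most read were Runx1 (0 and 141 TPM), Id4, an inhibitor of basic helix-loop-helix factors (2.06 and 156 TPM), Snai2 and Zeb1, a factor of mesenchymal cells (128 and 0 TPM). Trp63, Elf5, Foxa1, Tbx3 and Cited1 had 0 reads in both libraries. They have from 2 to 8 listed transcripts each, and reads that fit several may not have been counted, so these zeros may give no level. Basal and luminal markers were higher in the same library as this list, and endothelial markers in the other.

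**Figure D5:**
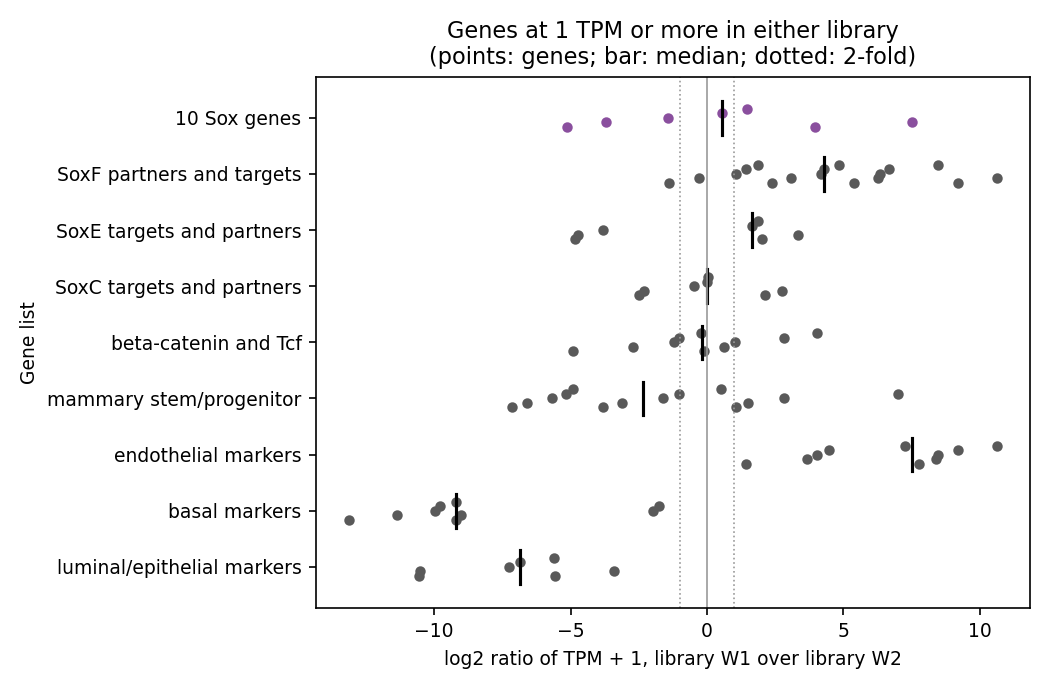
Log2 ratio of TPM + 1, library W1 over library W2 (horizontal axis), of the genes at 1 TPM or more in each list (vertical axis), with the median as a bar and 2-fold as dotted lines. The Sox genes lie on both sides of 0, group F partners and endothelial markers mostly above 0, and basal and luminal markers below it.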

How the data were processed

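Both libraries were RNA-seq from sorted cells. Bowtie 0.12.2 and the builds mm8 and GRCm38 are named, per the submitters' processing notes. No source used here gives the counting tool, its annotation or its strand setting. The deposited TPM and FPKM values, made by the authors, cover 137767 transcripts, of which 137654 matched GENCODE M21 and were summed per gene. Deposited FPKM times transcript length falls on whole multiples of 1 read: within 0.1 read, 98.47% and 98.07% of transcripts above 0 in W1 and W2 came out whole. This depth sets the exact Clopper-Pearson and Poisson intervals at 95%, and the floor of 3 reads. 50-mers were compared over all listed transcripts. The steps were tested on simulated data. All 10 genes are named, and of each list the 4 members with the most reads and the defining members at 0 were to be named. The members and lists were chosen with earlier results of these data known. No gene was named for a similar pattern, since 2 libraries give 1 difference. The 9 alternatives changed the pseudocount, filter, unit, scaling or summing. Values were computed with pandas 2.3.3, scipy 1.17.1 and numpy 2.4.6 in Python 3.11.15, and plotted with matplotlib 3.10.9. A few items are not reported here.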

Additional observations from a re-analysis of the deposited data

How the results depend on the processing

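The count of Sox genes called higher stayed within 1.5 times of 3 in each direction under all 9 alternatives. In W1 it was 2 with a pseudocount of 5 TPM, with at least 20 reads in 1 library, and with only the transcript with the most reads, where Sox17 fell below 1 TPM. It was 4 on recovered reads scaled to library size alone, where Sox13 passed the filter. In W2 it was 2 with a pseudocount of 5 TPM and with at least 20 reads. The sign of the log2 ratio held for all 7 compared genes under every alternative that kept them. For Sox18, Sox17 and Sox10, with 0 reads in 1 library, no alternative could reverse it. The counting intervals of Sox10 and Sox15 include a ratio of 1, so a constant sign shows no difference for them. Sox18 ranged from 5.23 to 10.84, Sox7 from 3.48 to 4.33, Sox4 from -4.01 to -3.36 and Sox9 from -5.45 to -4.42. Sox17 (0.44 to 4.22) and Sox10 (-4.14 to -0.42) fell under 2-fold with a pseudocount of 5 TPM. Centring on the median log2 ratio of the 6804 genes that reach 1 TPM in W1 and also in W2, which is -0.35, moved every Sox ratio toward W1 (Sox4 to -3.36, Sox10 to -1.31) and changed no Sox call. Over all genes, the share called higher was 16.8% in W1 and 19.9% in W2 with a pseudocount of 5 TPM, and 8.03% and 7.61% with no filter, against 34.7% and 32.9%. No paired analysis was possible because there is 1 library of each title, and no library could be left out. The floor of 3 reads, from 0.118 TPM for Sox11 to 1.15 TPM for Sox15, limits what depth can show.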
